A study of Homo sapiens with 6 samples.

Results

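This section follows the genes of the cyclin-dependent kinase (CDK) inhibitors in MCF10DCIS.com cells after silencing of WDR5. The genes were taken by name from the deposited table of read counts, and all 8 listed symbols were found among its 26334 gene rows. They were CDKN1A, CDKN1B and CDKN1C (the CIP family), CDKN2A, CDKN2B, CDKN2C and CDKN2D (the INK4 family) and CDKN3. MCF10DCIS.com is a human basal-like breast line of the MCF10A lineage that forms lesions like ductal carcinoma in situ in mice. Both groups were grown in medium with horse serum, were infected with the same vector backbone carrying TagRFP and a puromycin resistance gene, and were selected with puromycin. The shLuc cells (3 libraries) carried a hairpin against luciferase, which human cells lack, and the shWDR5 cells (3 libraries) carried hairpins against WDR5, the core subunit of the H3K4 methyltransferase complexes. The labels number the replicates without saying whether they came from separate cultures, so the p-values measure the spread between these samples, which may be technical. The study's methods describe a pool of hairpins against WDR5, so that the knockdown is that of a mixed population and not of a clone.

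CDK inhibitors hold the cell cycle back by binding cyclin-dependent kinases. The CIP proteins p21 (CDKN1A), p27 (CDKN1B) and p57 (CDKN1C) bind a broad range of cyclin-CDK complexes, above all those of CDK2. The INK4 proteins p16 (CDKN2A), p15 (CDKN2B), p18 (CDKN2C) and p19 (CDKN2D) bind the monomeric D-cyclin kinases CDK4 and CDK6, and the CDKN2A gene also encodes p14ARF, which stabilises p53. CDKN3 belongs to neither family: it encodes a phosphatase that removes the activating phosphate from CDK2 and CDK1, and its mRNA is made mainly in G2 and mitosis. Cells of the MCF10A lineage are described as lacking the CDKN2A and CDKN2B locus, which was checked in the counts.

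The libraries held between 38218108 and 57640167 reads assigned to genes, and 16117 genes passed the filter on low counts. WDR5 itself was 2.22-fold lower in shWDR5 (50.8 ± 2.09 against 22.8 ± 1.86 normalised counts per 1000000 reads, or CPM, SD, n = 3 each, adjusted p = 8.67e-07, edgeR quasi-likelihood test with Benjamini-Hochberg adjustment) and its groups did not overlap. The first principal component held 84.4% of the variance and separated the groups, and the second (7.78%) set replicate 1 of both groups apart from the other libraries. All 10 basal breast epithelial markers checked had reads in both groups, 8 rose, 1 fell and 1 did not pass the test, and their summed level was higher in shWDR5 (13500 to 14700 CPM in shLuc, 23800 to 27300 in shWDR5). Among the markers that rose were KRT6A, KRT14 and KRT17, by 3.56-, 2.44- and 1.91-fold. Over all genes tested, 26.6% were higher and 29.9% lower at an adjusted p below 0.05. The luminal markers stayed low in sum (39.8 to 45.2 against 44.5 to 52.6 CPM), with PGR at or near 0 and TFF1 at 0, while AGR2 rose 2.71-fold and FOXA1 fell 1.33-fold. Markers of fibroblasts, endothelium and blood cells summed to 41.5 to 45.3 CPM in shLuc and 31 to 35.7 in shWDR5, with LUM and CD3E at 0 and COL3A1, DCN and PTPRC near 0. Of these 12 markers 6 were tested, and CD14, PECAM1 and COL1A1 fell. The part of these marker shifts in the results on the inhibitors was not tested.

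The response was mixed. CDKN1A rose, CDKN1C, CDKN2D and CDKN3 fell, CDKN1B and CDKN2C did not pass the test, and CDKN2A and CDKN2B had no read in any library. Thus 4 of the 6 genes that entered the test were called at an adjusted p below 0.05, 1 higher and 3 lower. Across all genes tested, 56.5% were called, 26.6% higher and 29.9% lower, so a share of 4 in 6 is close to that background. With a log2 change of at least 0.6 also required, 3 were called, 1 higher and 2 lower, against 22.9% of all genes (10.9% higher and 12% lower). CDKN1C entered the test only through its level in shLuc. The libraries are bulk RNA, so fewer cells of a type and less RNA per cell cannot be told apart.

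**Figure D1:**
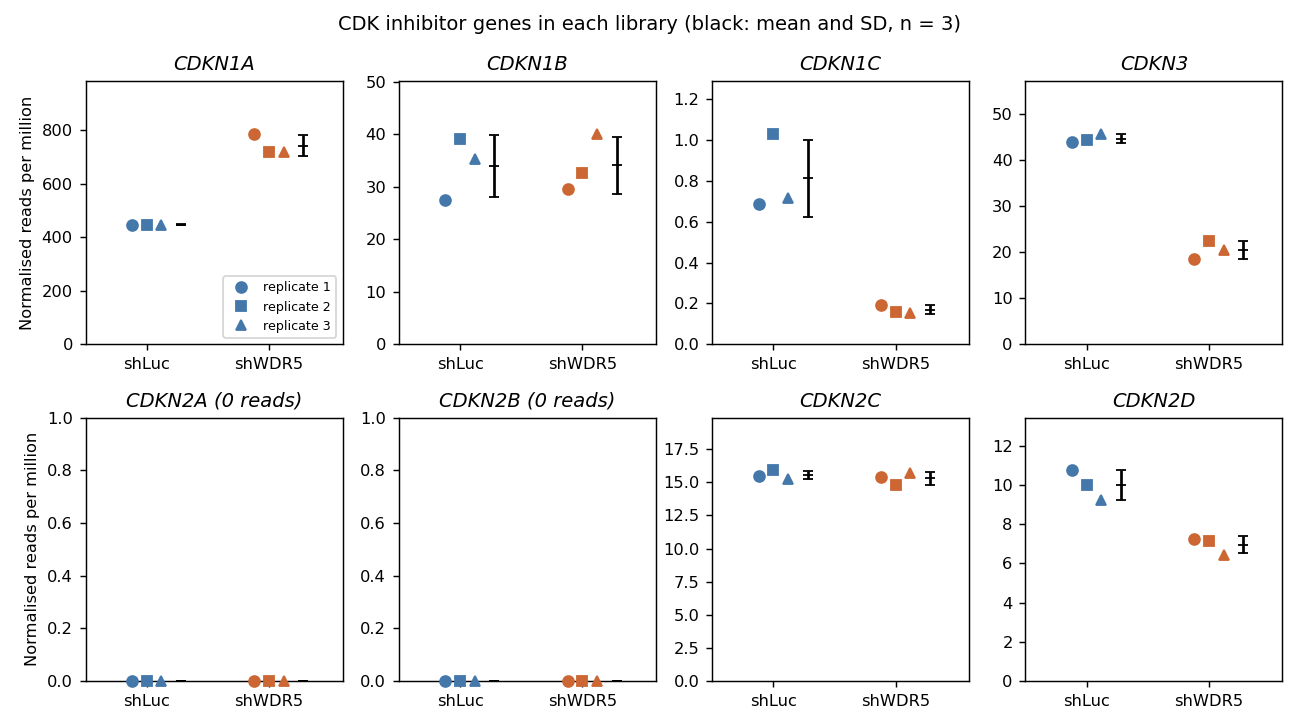
Normalised CPM (vertical axes, linear from 0) of the 8 CDK inhibitor genes in the 3 shLuc (blue) and 3 shWDR5 (orange) libraries, with the marker shape giving the replicate number and the black bar the mean and SD. The groups are apart for CDKN1A, CDKN1C, CDKN3 and CDKN2D, overlap for CDKN1B and CDKN2C, and sit at 0 for CDKN2A and CDKN2B.

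The upstream sequences of 3 called members are shown because CDKN1A moved against the others: they set its promoter beside those of CDKN3 and CDKN2D. Each run is the 250 bases before the RefSeq transcription start on GRCh38.p14, read 5′ to 3′ on the gene's own strand. Of the 8 members 7 had such a window, all but CDKN1C, and those of the remaining members are not shown. Capitals mark the GC box GGGCGG, the CCAAT box and the cell cycle homology element TTTGAA, each searched on both strands, and neighbouring matches run together. The windows lie at chr6:36678464-36678713 (plus strand, CDKN1A), chr14:54396757-54397006 (plus strand, CDKN3) and chr19:10568980-10569229 (minus strand, CDKN2D).
CDKN1A: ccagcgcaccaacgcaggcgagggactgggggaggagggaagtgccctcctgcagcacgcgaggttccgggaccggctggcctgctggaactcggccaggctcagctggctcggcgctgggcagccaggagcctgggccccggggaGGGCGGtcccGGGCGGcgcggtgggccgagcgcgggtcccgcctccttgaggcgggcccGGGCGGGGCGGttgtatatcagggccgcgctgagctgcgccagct
CDKN3: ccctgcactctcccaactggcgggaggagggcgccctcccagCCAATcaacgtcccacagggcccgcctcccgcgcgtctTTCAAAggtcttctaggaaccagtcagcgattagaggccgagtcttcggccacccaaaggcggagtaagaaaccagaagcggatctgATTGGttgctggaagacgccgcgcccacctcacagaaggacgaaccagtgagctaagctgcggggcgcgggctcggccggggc
CDKN2D: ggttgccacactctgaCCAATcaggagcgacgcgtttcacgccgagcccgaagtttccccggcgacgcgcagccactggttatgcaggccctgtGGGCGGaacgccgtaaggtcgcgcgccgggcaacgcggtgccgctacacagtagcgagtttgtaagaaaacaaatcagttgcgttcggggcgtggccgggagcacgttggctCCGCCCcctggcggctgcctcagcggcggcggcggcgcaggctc

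The CDKN1A window held 4 GC boxes, the nearest ending 34 bases before the start, and no match to the other 2 motifs. CDKN3 held 2 CCAAT boxes and 1 cell cycle homology element, and CDKN2D 2 GC boxes and 1 CCAAT box. Of all 35116 windows of this length, 42.6% held a GC box, 32.0% a CCAAT box and 13.3% a cell cycle homology element. Among 20 mitotic genes listed for comparison with CDKN3, 16 had a window, with 18 windows in all. Of these 18 windows 17 (94.4%) held a CCAAT box, 10 (55.6%) the homology element and 14 (77.8%) a GC box. These matches describe letters and not binding sites, and whether they go with the direction of change was not tested.

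CDKN1A was the inhibitor with by far the most mRNA, and it rose on WDR5 silencing. It gave 447, 448 and 445 normalised CPM in the 3 shLuc libraries and 787, 720 and 720 in the 3 shWDR5 libraries. Every shWDR5 library lay above every shLuc library, as was so in one direction or the other for 62.3% of all genes tested. The rise was 1.66-fold (95% interval 1.53 to 1.80, log2 fold change 0.73 ± 0.05 SE, adjusted p = 1.88e-06), which placed CDKN1A at rank 2814 of 16117 by the size of the change. On the scale of reads per kilobase and per 1000000 reads (RPKM, scaled to each library total) the level of CDKN1A went from 173 ± 0.42 to 276 ± 12.1. The gene lies at chr6:36644237-36655116 on the plus strand of hg19, the build of the read counts.

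CDKN1B, whose protein p27 is set largely by its turnover, did not pass the test. Its libraries read 27.4, 39.1 and 35.2 normalised CPM in shLuc and 29.5, 32.5 and 40.1 in shWDR5. The groups overlapped over nearly their whole range, and replicate 1 was the lowest library in each. The fitted fold was 1.00 with a 95% interval from 0.814 to 1.24 (adjusted p = 0.971), so a change within those bounds was not detectable here. The sign of this value turned with the scaling, to a log2 fold change of -0.0497 with plain library totals. The gene lies at chr12:12870204-12875316 on the plus strand.

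CDKN1C, an imprinted gene whose protein p57 restrains growth, fell the most in ratio but from a low level. It had 34, 40 and 29 reads in shLuc and 9, 9 and 7 in shWDR5, or 0.688, 1.03 and 0.718 against 0.194, 0.158 and 0.154 normalised CPM. All shWDR5 libraries were below all shLuc libraries. The change was 4.72-fold (log2 fold change -2.24 ± 0.28 SE, adjusted p = 7.31e-05), rank 168 of 16117 by size. All 3 shWDR5 libraries were under the filter's level of 0.213 CPM before composition scaling (0.152 to 0.189), so a gene at this depth could be tested only if shLuc was higher. The gene lies at chr11:2904448-2906995 on the minus strand.

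CDKN3 had the next highest level per length and fell. It read 43.8, 44.4 and 45.7 normalised CPM in shLuc and 18.6, 22.3 and 20.5 in shWDR5. The groups were far apart relative to their spread. The decrease was 2.18-fold (log2 fold change -1.12 ± 0.07 SE, adjusted p = 1.13e-06). The gene lies at chr14:54863673-54886934 on the plus strand.

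Of the INK4 genes with reads, CDKN2D fell and CDKN2C did not pass the test. CDKN2D, the inhibitor p19, read 10.7, 9.98 and 9.22 normalised CPM in shLuc and 7.25, 7.16 and 6.44 in shWDR5. The lowest shLuc library stayed above the highest shWDR5 library. The decrease was 1.44-fold (log2 fold change -0.52 ± 0.09 SE, adjusted p = 0.00054), so that it did not reach the log2 change of 0.6. CDKN2C, the inhibitor p18, read 15.5, 15.9 and 15.3 in shLuc and 15.4, 14.8 and 15.7 in shWDR5. Its values overlapped, and the interval of the fold ran from 0.889 to 1.09 (adjusted p = 0.793). CDKN2C lies at chr1:51434367-51440309 on the plus strand and CDKN2D at chr19:10677138-10679655 on the minus strand.

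Levels between genes were compared per length, in RPKM. In shLuc the order was CDKN1A at 173 ± 0.42, CDKN3 at 51.1 ± 1.36, CDKN1B at 13.7 ± 2.39, CDKN2D at 7.15 ± 0.52, CDKN2C at 6.40 ± 0.10 and CDKN1C at 0.43 ± 0.10 (SD, n = 3). No neighbours in this order overlapped, although the lowest CDKN2D library (6.65) was only just above the highest CDKN2C library (6.52). In shWDR5 the order was CDKN1A at 276 ± 12.1, CDKN3 at 22.5 ± 2.22, CDKN1B at 13.2 ± 2.19, CDKN2C at 6.06 ± 0.19, CDKN2D at 4.79 ± 0.29 and CDKN1C at 0.09 ± 0.01. Again no neighbours overlapped, so CDKN2C and CDKN2D had traded places. CDKN2D took 52.7% ± 1.77 of the summed INK4 level in shLuc and 44.1% ± 2.22 in shWDR5. Among the CIP genes CDKN1A took 92.4% ± 1.24 and 95.4% ± 0.87. The summed CIP level went from 187 ± 2.24 to 289 ± 10.6 RPKM and the summed INK4 level from 13.6 ± 0.55 to 10.8 ± 0.15, as a description of mRNA that says nothing of protein.

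CDKN2A and CDKN2B, the INK4 genes most often lost in cancer, had 0 reads in all 6 libraries. At these depths a count of 0 allows at most 3 reads, or 0.0528 to 0.0773 normalised CPM per library, counting error only. They lie at chr9:21967751-21994490 and chr9:22002902-22009312 on the minus strand, and the antisense gene CDKN2A-AS1 at their side also had 0 reads. To see how far the gap reached, all 36 gene rows that start within 2 Mb of the CDKN2A start were read out. Of these 13 had no read in any library, 13 had some reads but a mean under 10, and 10 had a mean of 10 or more. Of the 13 rows without reads 8 were interferon genes, which are little used in unstimulated cells.

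**Figure D2:**
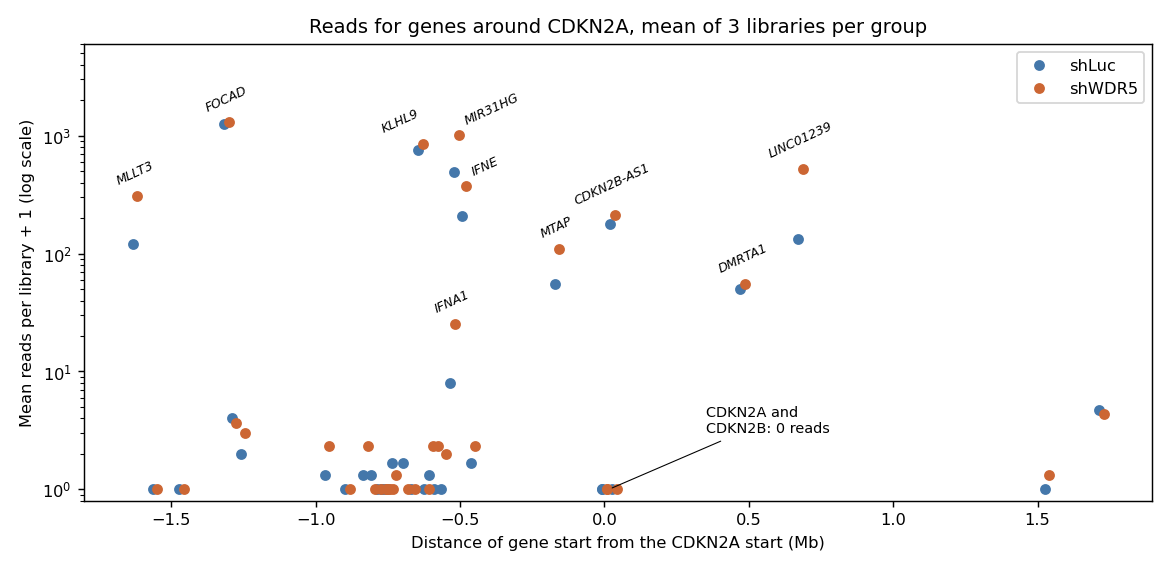
Mean reads per library plus 1 (vertical axis, log scale) for the 36 genes that start within 2 Mb of the CDKN2A start, plotted against that distance in Mb, for shLuc (blue) and shWDR5 (orange), shifted slightly sideways to be seen apart. CDKN2A and CDKN2B sit at 0 reads, with MTAP (50 to 120 reads in single libraries) on one side and CDKN2B-AS1 (157 to 247 reads) across CDKN2B.

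Rows with reads stood close by. MTAP, which encodes a methionine salvage enzyme and is often deleted together with CDKN2A, had 56, 50 and 57 reads in shLuc and 113, 120 and 93 in shWDR5. At 0.265 ± 0.03 RPKM in shLuc it was low, yet its groups did not overlap and it rose 1.73-fold (adjusted p = 8.12e-04). CDKN2B-AS1, a long noncoding RNA whose span on the plus strand (chr9:21994790-22121093) contains CDKN2B, had 215, 165 and 157 reads in shLuc and 212, 247 and 174 in shWDR5. It was not called (fold 1.02, adjusted p = 0.828). The table gives one count per gene, so the exons that these reads came from are not known, and the strand setting of the counting is not given in the sources used here. Read counts alone cannot tell a lost gene from a silent one.

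Farther from CDKN2A, FOCAD and KLHL9 had on average 1280 and 804.5 reads per library and DMRTA1 51.5, and none of them was called (adjusted p = 0.0645, 0.831 and 0.834). LINC01239 rose 3.44-fold, MLLT3 2.23-fold, MIR31HG 1.79-fold and IFNE, an interferon made by epithelia, 1.57-fold. IFNE lies within the span of MIR31HG on the same strand, and whether its reads came from MIR31HG was not tested. IFNA1 was 2.98-fold higher, but from 6 to 8 reads to 22 to 27, and its reads could be shared with near-identical interferon genes. It passed the low-count filter only through shWDR5, so a gene at this depth could be tested only if shWDR5 was higher. Genes on both sides of CDKN2A and CDKN2B thus had reads in both groups.

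The cyclins and CDKs around the inhibitors, listed together with the activating phosphatase CDC25A and the assembly factor MNAT1, moved in both directions. Of the 17 genes of this list, 4 rose, 9 fell and 4 did not pass the test, where 26.6% of all genes tested were called higher and 29.9% lower. The median log2 fold change of the list was -0.48 against -0.01 over all genes tested. CDK2, the main kinase under CIP control, fell 1.69-fold (54.6 ± 0.72 to 32.3 ± 0.96 normalised CPM, adjusted p = 2.20e-06). The ratio of CDKN1A to CDK2 mRNA in RPKM was 7.13 ± 0.07 in shLuc and 20.1 ± 1.66 in shWDR5. That its groups did not overlap follows from the rise of CDKN1A and the fall of CDK2. The largest changes in the list were in CDC25A, the phosphatase that activates CDK2 (2.29-fold lower), CCNH of the CDK-activating kinase (2.15-fold lower), the germline-type cyclin CCNA1 (2.08-fold higher) and CCNA2, the S-phase cyclin (1.99-fold lower). CDK1, the mitotic kinase, fell 1.83-fold. These values come from the same edgeR fit, with adjusted p between 8.05e-07 and 1.23e-05.

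The G1 side of the list was less uniform. CDK6, a target of the INK4 proteins, rose 1.41-fold (adjusted p = 0.00664), whereas CDK4 was at 104 ± 6.51 and 116 ± 7.21 normalised CPM and did not pass the test (adjusted p = 0.0698). CCND1, the partner of CDK4 and CDK6, read 488 ± 30.7 and 508 ± 15.6 (adjusted p = 0.421). CCND3 fell 1.39-fold and CCNE1, a partner of CDK2, rose 1.40-fold, while CCNE2 read 13.9 ± 2.43 and 11.2 ± 1.79 (adjusted p = 0.0888). The ratio of CDKN2C to CDK6 mRNA in RPKM was 0.244 ± 0.04 in shLuc and 0.171 ± 0.03 in shWDR5. Its groups did not overlap, with 0.218 the lowest shLuc and 0.202 the highest shWDR5 library. CDKN2C was not called, so the lower ratio largely restates the rise of CDK6. The ratio of CDKN2C to CDK4 was 0.121 ± 0.0084 in shLuc and 0.107 ± 0.00775 in shWDR5, and its groups overlapped.

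**Figure D3:**
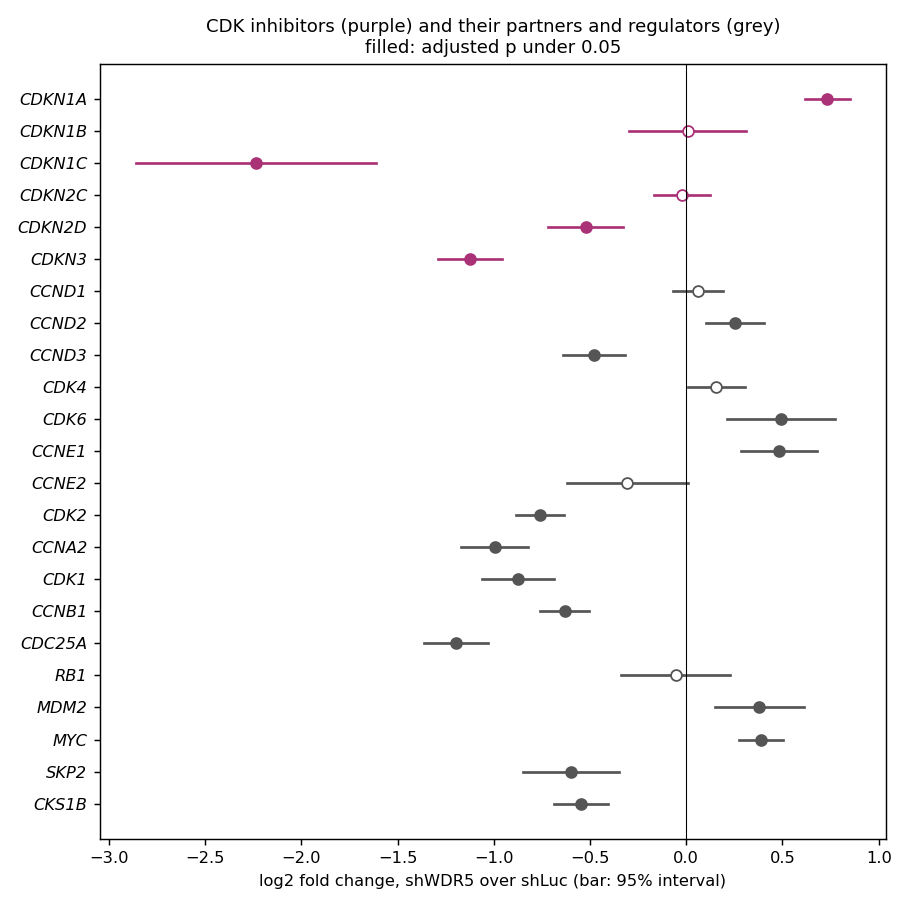
Log2 fold change of shWDR5 over shLuc (horizontal axis) with its 95% interval for the 6 inhibitor genes tested (purple) and for selected partners and regulators (grey), filled where the adjusted p was below 0.05. CDKN1A lies at 0.73, CDKN1C at -2.24 and CDKN3 at -1.12, while the intervals of CDKN1B and CDKN2C span 0.

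Downstream of the kinases, 5 of 13 genes of the RB family, E2F and DP factors rose, 6 fell and 2 did not pass (median -0.06). The background over all genes tested was 26.6% called higher and 29.9% lower. RB1, the main substrate of CDK4 and CDK6, read 84.0 ± 12.4 and 80.8 ± 13.1 (adjusted p = 0.736). E2F8 fell 3.49-fold, E2F2 2.22-fold and the pocket protein RBL1 1.57-fold, and E2F7 rose 1.53-fold. E2F7 and E2F8, both atypical repressors of E2F targets, thus moved in opposite directions.

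CDKN3 was read beside 20 mitotic genes, since its mRNA is made in the same phase. All 20 were called lower, where 29.9% of all genes were, with a median of -0.86. CENPF (kinetochore), MKI67 (the Ki67 antigen), CCNA2 and BUB1B (spindle checkpoint) fell the most, by 2.15-, 2.14-, 1.99- and 1.99-fold. CCNA2, CCNB1, CCNB2 and CDK1 are also in the list of cyclins and CDKs. The 2.18-fold fall of CDKN3 was thus close in size to the largest of these. CDKN3 over MKI67 in RPKM was 1.21 ± 0.08 in shLuc and 1.18 ± 0.11 in shWDR5 with overlapping libraries. CDKN3 over CDK1 was 1.94, 1.68 and 1.76 in shLuc and 1.53, 1.59 and 1.39 in shWDR5, without overlap.

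CDKN1A is a classical target of p53, and 20 other p53 targets were read beside it. Of these 14 rose, 4 fell and 2 did not pass, with a median of 0.41. Over all genes tested 26.6% were called higher and 29.9% lower, with a median of -0.01. TP53INP1, which promotes p53 activity, rose 3.72-fold, the antiproliferative BTG2 2.12-fold, and the stress-induced inhibitors of mTORC1 signalling SESN2 and SESN1 2.11- and 2.08-fold. MDM2, the ligase that degrades p53, rose 1.30-fold (adjusted p = 0.0102). Others moved the opposite way, among them CCNG1 and GDF15, which fell 1.71- and 1.49-fold, so the targets were not uniform. CCNG1 and GDF15 were chosen after their values were seen.

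Among 15 factors known to act on CIP gene transcription, 7 rose, 3 fell and 5 did not pass (median 0.22). The shares over all genes tested were 26.6% higher and 29.9% lower. MYC, a repressor of CDKN1A, rose 1.31-fold. TP73, a p53 relative with low counts, rose 2.18-fold and FOXO1, an activator of CDKN1B, 1.41-fold. SP1, a general activator that binds GC boxes, fell 1.59-fold and SMAD3, a mediator of TGFβ signals, 1.37-fold.

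Of 14 genes that act on the stability or export of CIP proteins, 6 rose, 5 fell and 3 did not pass (median -0.04). Among all genes tested 26.6% were called higher and 29.9% lower. SKP2 and CKS1B, which mark p27 for degradation, fell 1.51- and 1.46-fold while CDKN1B mRNA was not called. DTL, the receptor that targets p21 in S phase, fell 1.52-fold, and the scaffold CUL4A rose 1.36-fold. No protein was measured in these files.

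Of 18 regulators of the INK4 genes, 5 rose, 6 fell and 7 did not pass (median -0.02). The 11 called of 18 are close to the background of 56.5% of all genes tested. TBX3 rose 2.71-fold and its relative TBX2, both repressors of INK4 genes, fell 2.09-fold. CBX7, a Polycomb protein, fell 1.85-fold and the demethylase KDM6B, which counters Polycomb, rose 1.76-fold. CDKN2A and CDKN2B, the usual readouts of these factors, stayed at 0 reads in both groups.

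The listed genes of the imprinted region around CDKN1C did not follow it as a block. Whether each of them is imprinted in these cells was not checked. Of 15 listed genes 10 were tested, of which 5 rose, 3 fell and 2 did not pass (median 0.22). Over all genes tested 26.6% were called higher and 29.9% lower. H19, the maternally expressed noncoding RNA, fell 1.99-fold, from 12.8 ± 1.67 to 6.41 ± 0.44 normalised CPM. SLC22A18, CARS and TSSC4 rose 1.32-, 1.31- and 1.29-fold. KCNQ1OT1, the noncoding RNA that silences the domain on the paternal copy, rose 1.24-fold (adjusted p = 0.00178). SLC22A18AS and PHLDA2 fell 1.22- and 1.19-fold. KCNQ1OT1, SLC22A18AS and PHLDA2 were chosen after their values were seen.

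Among 9 other proteins that bind CDKs, cyclins or CDKN2A products, 2 rose, 4 fell and 3 did not pass (median -0.07). The shares of all genes tested were 26.6% called higher and 29.9% lower. CDK2AP1, an inhibitor of CDK2 outside both families, rose 3.43-fold (48.4 ± 4.47 to 166 ± 26.4 normalised CPM, adjusted p = 8.70e-07). The cyclin D1-binding CCNDBP1 rose 1.37-fold, and CINP and CABLES1 fell 1.36- and 1.33-fold.

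The genes most like each called member over the 6 libraries were found by Pearson correlation of log2 levels. For CDKN1A these were DHRS3, FAM83H and MIR210HG (r = 0.9997 to 0.9999), and for CDKN3 HMGCS1, ITGBL1 and IPP (r = 0.9994 to 0.9998). CDKN2D was closest to RCC1, CTDSP2 and ACTR1B (r = 0.999 each) and CDKN1C to PRDM4, POU6F1 and GCSAM (r = 0.996 to 0.998). Likeness here is of pattern and not of size: PRDM4 changed by -0.37 on the log2 scale and CDKN1C by -2.24. The 6 points form only 2 groups, and 1661 to 2359 genes had r above 0.95 with a given member.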

How the data were processed

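Poly-A RNA of 6 MCF10DCIS.com libraries was sequenced on HiSeq 2000. The deposited counts are whole reads per gene, not normalised. Per the labels the authors aligned with TopHat2 2.1.0 to hg19 and counted with featureCounts (version and strand setting not given in the sources used here). The authors' own comparison (fold changes and p-values from edgeR 3.2.2) was not used. Here edgeR 4.0.16 in R 4.3.3 was run over all genes: filterByExpr, TMM scaling, glmQLFit and glmQLFTest on shWDR5 against shLuc, with Benjamini-Hochberg adjusted p below 0.05 as the call. SE is the log2 fold change divided by the square root of F. Normalised CPM are reads per 1000000 of the TMM-scaled total, and RPKM uses plain totals and the exon length in the table. Correlations used log2 values with 0.5 added. The fitting code was tested on simulated data. Members, gene lists and rules were chosen with earlier results of these data known. Named were the members, WDR5, a list of direct partners and regulators (MDM2 and MYC among them), window genes with a mean of 10 or more reads, up to 4 called genes of each list by size and the 3 genes closest in pattern to each called member. Alternatives were DESeq2 1.42.0, RLE or no scaling, no filter, the edgeR exact test, a replicate block and leaving out each library. Upstream sequences are RefSeq, GRCh38.p14, and were not mixed with hg19 positions. Libraries of a group differed by more than sampling noise. Some genes that the naming rule covers are not reported here.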

Additional observations from a re-analysis of the deposited data

How the results depend on the processing

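CDKN1A, CDKN1C, CDKN2D, CDKN3 and WDR5 kept direction and call under all 12 alternatives run for each. Leaving out 1 library at a time gave log2 fold changes of 0.69 to 0.76, -2.34 to -2.05, -0.58 to -0.45, -1.19 to -1.06 and -1.20 to -1.09, in that order. For CDKN1C the direction was largely set beforehand in every alternative except the fit without the low-count filter. CDKN1B turned sign, uncalled throughout, with plain library totals (-0.0497) and without the low-count filter (-0.0026), and ranged from -0.13 to 0.11 on leaving out libraries. CDKN2C ranged from -0.0433 to 0.0032 on leaving out libraries and was -0.0801 with plain library totals, likewise uncalled. CDKN2A and CDKN2B gave no value in any fit. The total of 9112 called genes was 8120 to 8847 on leaving out libraries (higher 3803 to 4263, lower 4271 to 4584). It fell to 3690 (1751 higher, 1939 lower) when a log2 change of 0.6 was also required, which CDKN2D then misses. No called gene of the lists changed sign in any fit, but 1 to 11 of 118 lost their call in all fits except the replicate block. The median of all genes lay between -0.068 and 0.00638 under the other scalings.

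Same-numbered libraries were not paired by the labels. Their deviations correlated at 0.555, 0.0647 and 0.199, and not every library correlated best with its own number. With the replicate block 10412 genes were called and no member's call changed (CDKN1A 0.73, CDKN1B 0.0066, CDKN1C -2.26, CDKN2C -0.02, CDKN2D -0.52, CDKN3 -1.13). CDKN1C rests on 7 to 9 reads per shWDR5 library, which limits its precision. It passed the low-count filter only through shLuc, so its direction in fits that use this filter was largely set beforehand. Without the filter its log2 fold change was -2.25 and it was still called lower.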
